A study of Caenorhabditis elegans with 4 samples.

Results

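The regions described here are the 628 peaks on chromosome III of Caenorhabditis elegans in the series-level peak list of a chromatin immunoprecipitation sequencing (ChIP-seq) study of FKH-10, out of 3792 peaks on all 6 chromosomes. They were taken by chromosome alone, so neither their strength nor their recurrence decided which peaks were included. The animals were L4 hermaphrodites of strain OP337, the last larval stage, grown at 20 °C. They carry unc119(ed3) and the transgene wgIs377(fkh-10::TY1 EGFP FLAG;unc119). The tagged FKH-10 came from this transgene, introduced by bombardment together with an unc-119 copy, and all samples carried both. The series has 2 anti-GFP ChIP samples and 2 input samples, which are unenriched DNA of the same extracts. No animals without the tag are among these samples, and values of the inputs were not analysed here. The labels do not state whether replicates 1 and 2 were separate cultures, so their differences may be technical. A peak counted as found in a replicate when at least 1 bp of it overlapped a peak of that replicate's own list.

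FKH-10 belongs to the forkhead family, transcription factors that bind DNA through a winged-helix domain. ChIP-seq of a tagged factor lists the stretches of DNA recovered with it above background, averaged here over all cells of whole animals. Autosomes of C. elegans have gene-rich centres with little recombination, flanked by arms that are richer in repeats and recombine more. Chromosome III is the shortest of them and carries the main Hox gene cluster, whose factors pattern the body axis. It also carries the native unc-119 locus. Whether DNA of the transgene's unc-119 copy was counted there was not tested. Coordinates are on WormBase build WS220, for which no gene annotation or sequence was used here, so peaks are named by position and none was assigned to a gene.

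Chromosome III was the autosome with the most peaks per Mb. Its 628 series-level peaks gave 45.8 peaks per Mb of peak span, the stretch between the outermost peak bases in the 3 lists. The other autosomes together had 34.0 per Mb, a ratio of 1.35. Chromosome II was next among the autosomes with 40.6 per Mb, and X was higher than III with 48.2. The replicates' own lists gave ratios of III to the other autosomes of 1.55 in replicate 1 and 1.58 in replicate 2. Chromosome I was sparse in those lists. Against II, IV and V alone the ratio was 1.32 for series-level peaks, 1.35 for replicate 1 and 1.42 for replicate 2. Counted per gene, III held 23.8 series-level peaks for every 100 protein-coding genes, against 16.0 on the other autosomes. The gene numbers, 2642 of them for III, come from the RefSeq annotation of WBcel235. X had 30.6 peaks per 100 genes, and III came second of 6 on this scale too. No test was made of these ratios, because 6 chromosomes are too few to set III apart.

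The surplus on chromosome III lay mainly in the outer parts of its peak span. The span, from 20353 to 13717777, was divided into 3 equal parts called left arm, centre and right arm. Bounds of the recombination domains were not available, so these parts may differ from the arms that recombine more. Other arm lengths were tried for ratios within III, but not for the comparison with other autosomes. The centre held 244 peaks (38.9%, exact Clopper-Pearson 95% interval 35.0 to 42.8), the left arm 182 (29.0%, 25.5 to 32.7) and the right arm 202 (32.2%, 28.5 to 36.0). Such intervals take each peak as independent of the others and reflect counting error alone. The centre of III had 53.4 peaks per Mb, against 48.7 in the centres of I, II, IV and V, a ratio of 1.10, and the centre of II was denser still (57.8). Both arms of III together had 42.1 per Mb, against 26.6 in the arms of the same autosomes, a ratio of 1.58. The arm ratio was 1.81 in replicate 1 and 1.88 in replicate 2, or 1.58 and 1.68 against II, IV and V alone. For the centres the same ratios were 1.26 and 1.25, or 1.11 and 1.13 without chromosome I.

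Within III the centre was 1.27 times as dense as the arms by series-level peaks, 1.30 times by replicate 1 and 1.26 times by replicate 2. The ratio was 1.95 on I, 1.80 on II, 1.61 on IV and 2.01 on V, so the profile of III was the flattest among the autosomes. X, at 0.88, had fewer peaks per Mb in its centre than in its flanks. The left arm of III was the sparser arm in all 3 lists, with a left-to-right density ratio of 0.90 by series-level peaks, 0.81 by replicate 1 and 0.89 by replicate 2. With series-level peaks within 1 kb merged the centre-to-arms ratio was 1.17, and with peaks within 5 kb merged it was 1.12. Merging within 1 kb gave 1.15 in replicate 2 and 1.29 in replicate 1, where the ratio hardly moved. Merging within 5 kb gave 1.07 in replicate 2 and 1.24 in replicate 1.

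**Figure D1:**
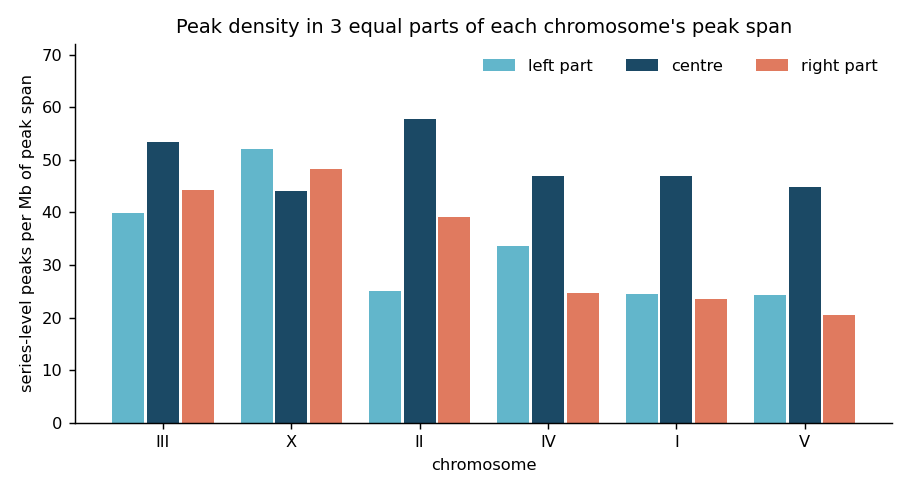
Series-level peaks per Mb (y axis) in the left, central and right parts of each chromosome's peak span (x axis, chromosomes); bars start at 0 and have no error bars because each is 1 count. The left arm of III (39.9) and its right arm (44.2) were each denser than any arm of I, II, IV and V, of which the right arm of II was the highest (39.1).

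Bins of 1 Mb showed a broad rise with dips rather than a smooth dome. Between 4 and 5 Mb there were 64 series-level peaks, and between 8 and 9 Mb there were 63. The lowest count was 28, between 2 and 3 Mb. The bin between 9 and 10 Mb held 36 peaks although it borders the centre, and the next bin, between 10 and 11 Mb, held 55. Strong peaks followed the counts in part. None of the 36 peaks between 9 and 10 Mb was in the strongest 10% of the whole series-level list, against 7 of 55 in the next bin. Such peaks were also few between 2 and 3 Mb (2 of 28) and between 11 and 12 Mb (1 of 35). Other bins departed from this, with 6 of 36 in the first Mb but 5 of 64 between 4 and 5 Mb. Over the 13 complete bins, the counts of replicates 1 and 2 rose and fell together (Spearman's rho of 0.92, Pearson's r of 0.90). These bins are stretches of 1 chromosome in 1 pair of libraries, so the correlation is a description.

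**Figure D2:**
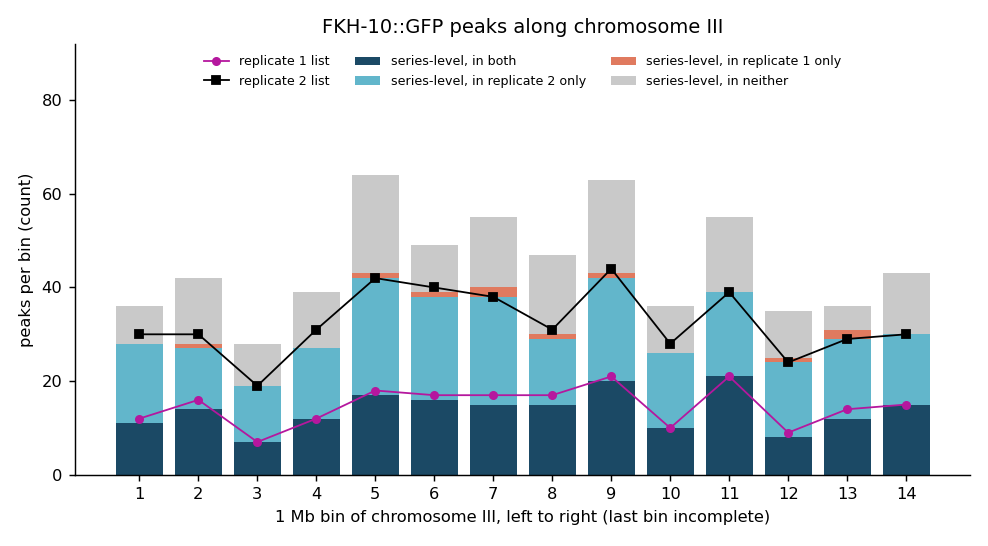
Peaks per 1 Mb bin along chromosome III (x axis, bins from left to right; y axis, count). Stacked bars give the series-level peaks by the replicate lists they were found in, and lines give the replicates' own lists; bins 5 and 9 are the tallest, with 64 and 63 peaks, and bin 3 is the lowest, with 28.

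Neighbouring peaks on III lay a median of 11.6 kb apart, and the middle 50% of distances ran from 2.68 to 30.4 kb. The median was 46.0 kb between replicate 1 peaks and 18.8 kb between those of replicate 2, which has the longer list. It was 28.5 kb between peaks of the stronger 50% of the series-level list. With series-level peaks within 1 kb merged it was 15.9 kb, and within 5 kb 22.4 kb. X had a median of 10.3 kb and II one of 9.05 kb. The median on II was the shorter although II had fewer peaks per Mb. Distances were uneven on all 6 chromosomes, with a standard deviation above their mean, and in the series-level list least so on III. Their coefficient of variation there was 1.24, the lowest of the 6 chromosomes, against 1.31 on X and 1.57 on II. In the replicates' own lists the value on III was 1.18 and 1.17, against 1.18 and 1.23 on X and 1.70 and 1.59 on II, so X was as even as III in replicate 1. Of the 627 distances on III, 73 (11.6%) were 1 kb or less and 75 (11.96%) were over 50 kb. Close neighbours were commoner in the centre, where 16.0% of distances were within 1 kb, than in the left arm (9.39%) or the right arm (8.46%). Replicate 2 showed the same order, with 13.7% in the centre, 6.15% in the left arm and 4.08% in the right arm. In replicate 1 the parts hardly differed, with 3.75% in the centre, 3.64% in the left arm and 2.94% in the right arm. The median distance was 8.96 kb in the centre, 13.7 kb in the left arm and 13.0 kb in the right arm.

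The longest stretch without a series-level peak was III 11392513 to 11641266, in the right arm. It spanned 248.8 kb, and both replicate lists were empty there too. The next were III 9228481 to 9373672 (145.2 kb), where no list had a peak, and III 2392009 to 2528524 (136.5 kb), where replicate 2 had 1 peak. Of 138 windows of 100 kb, 6 held no series-level peak and 4 held 10 or more. All 4 of the fullest windows were in the centre. The median window held 4 peaks.

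The fullest windows were III 6300001 to 6400000 and III 6600001 to 6700000, with 14 peaks each, followed by III 4600001 to 4700000 with 12. They differed in strength. In the first, 6 peaks were found in both replicates and 3 belonged to the strongest 10% of the series-level list. The second had 3 peaks found in both replicates and none in the strongest 10%. Its best peak was number 88 on III. The chain with the most peaks, a run with gaps of at most 5 kb, lay in the second window at III 6644200 to 6658178. It had 7 peaks over 13.98 kb, none of them found in both replicates. The second chain, III 6342024 to 6353156, had 6 peaks over 11.1 kb, of which 3 were found in both. Another 7 chains had 5 peaks each, 3 of them in the left arm, with 1 to 4 peaks found in both. The leftmost of the 7, III 1920834 to 1928661, spanned 7.83 kb and was the one with 4. Peaks covered 16.1%, 32.8% and 40.8% of the 3 chains named by position, the rest being gaps between them.

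Chromosome III peaks were short. The median width was 360.5 bp and the middle 50% ran from 277.75 to 485 bp. In the series-level list the medians were alike along the chromosome, at 350.5 bp in the left arm, 361 bp in the centre and 366 bp in the right arm. The same held in replicate 2, with 361 bp in the centre against 353 bp in the left arm and 347 bp in the right. In replicate 1 the centre had the narrower peaks, with a median of 365 bp against 437 bp in the left arm and 426 bp in the right. Other chromosomes had medians of 354 bp (V) to 401 bp (I). In the replicates' own lists the median on III was 385 bp in replicate 1 and 352 bp in replicate 2. Just 18 of the 628 peaks (2.87%) reached 1000 bp, and 17 of those were found in both replicates.

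The widest peak was III 7722888 to 7726590, in the centre, with 3703 bp. Each replicate listed 2 peaks inside it. In replicate 1 they were 1197 bp (q = 3.91e-16) and 564 bp (q = 0.000915) wide, and in replicate 2 they were 1289 bp (q = 2.29e-32) and 911 bp (q = 7.03e-10) wide. The left one was much the stronger in each replicate. The next 2 in width were III 9702580 to 9704685 (2106 bp) and III 12368355 to 12370223 (1869 bp), both in the right arm. Each replicate listed 1 shorter peak inside each of these. They were 795 bp (replicate 1) and 1092 bp (replicate 2) wide at III 9702580, and 686 and 1202 bp wide at III 12368355.

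At the other end, 34 peaks (5.41%) were narrower than 150 bp, 8 of them under 50 bp. The narrowest, III 10183487 to 10183489, spanned 3 bp. Of these 34 peaks, 31 were found in neither replicate, 3 in replicate 2 alone and 0 in both, and the strongest was number 296 of the 628. Over all chromosomes 212 peaks (5.59%) were under 150 bp, and 185 of those 212 were found in neither replicate. Whether such short calls mark separate sites was not tested.

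Strength was read from the deposited q-value, in which a smaller number is a stronger peak. The q-values on III ran from 1.63e-63 to 9.33e-04 in the series-level list. The first peak of III was number 11 of the whole list, and 62 of its 628 peaks (9.87%) were in the strongest 10% of that list, with the same number in the weakest 10%. Per chromosome, III held between 13.2% and 19.2% of each decile of the list, against 16.6% of the list as a whole. The density of III was thus spread over strong and weak peaks alike.

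The 10 strongest peaks of III were all found in both replicates. First came III 7722888 to 7726590 (q = 1.63e-63), already described as the widest. It was number 40 in replicate 1 and number 14 in replicate 2, over all chromosomes. Next was III 3867303 to 3867856 in the left arm, a compact peak of 554 bp with q = 6.39e-50. In both replicates it was the strongest peak of III, at q = 3.62e-21 (number 18) in replicate 1 and q = 9.63e-35 (number 12) in replicate 2. Its 2 edges in replicate 2 were the same bases as in the series-level list. After it came III 5991209 to 5992639 in the centre (1431 bp, q = 9.25e-42), number 34 in replicate 1 and 33 in replicate 2.

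Below these, the right arm's strongest peak was III 10758763 to 10759473 (711 bp, q = 1.24e-35). The replicates placed it at numbers 44 and 35. In the centre, III 8416766 to 8417987 (1222 bp, q = 5.06e-35) was number 46 in replicate 1 and 56 in replicate 2. In the left arm, III 4281685 to 4282658 (974 bp, q = 5.74e-32) was number 71 in replicate 1 and 48 in replicate 2. These 3 had similar places in both lists. The remaining 4 were III 4626415 to 4626999, III 1920834 to 1921803, III 4899626 to 4900222 and III 7854383 to 7854794, with q-values from 2.09e-31 to 4.33e-27. Among them the replicates differed most on III 1920834, number 142 in replicate 1 and 40 in replicate 2, and on III 4899626, number 47 in replicate 1 and 162 in replicate 2. The next 2 of the right arm were III 13070173 to 13070959 (q = 4.41e-26) and III 12612234 to 12612862 (q = 4.82e-26), numbers 12 and 13 of III.

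Recurrence divided the 628 peaks into 4 classes. On III 193 peaks (30.7%, interval 27.1 to 34.5) were found in both replicates, where the share over all 3792 peaks was 27.2%. A further 245 (39.0%, 35.2 to 43.0) were found in replicate 2 alone, against 35.1% over all peaks, and 10 (1.59%, 0.766 to 2.91) in replicate 1 alone, against 2.45%. The other 180 (28.7%, 25.2 to 32.4) were found in neither, against 35.2% over all peaks. Chromosome I, on which 60.5% of peaks were in neither list, raises that last background. At the strengths of the III peaks, the peaks of II, IV, V and X would have been in both lists in 29.5% of cases and in neither in 31.9%. These shares were taken within deciles of the list by q-value and weighted by the number of III peaks in each. Taken over all deciles, the shares on III were therefore near those of the chromosomes other than I. The share in neither list differed most in deciles 7 and 8. It was 32.1% (20.3 to 46.0) on III against 47.5% (41.5 to 53.5) in decile 7. In decile 8 it was 58.2% (45.5 to 70.2) against 75% (69.1 to 80.3). The intervals overlap in both deciles.

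Between the left arm, the centre and the right arm, recurrence differed little. Peaks found in both replicates made up 28.6% of the left arm (22.1 to 35.7), 30.7% of the centre (25.01 to 36.9) and 32.7% of the right arm (26.3 to 39.6), and these intervals overlap. Peaks found in neither made up 31.9%, 28.7% and 25.7% in the same order. Bins of 1 Mb varied more. The share in both ran from 22.9% of 35 peaks between 11 and 12 Mb to 38.2% of 55 between 10 and 11 Mb. By neighbourhood, 38.8% (30.3 to 47.7) of the 129 peaks with a neighbour within 1 kb were in both lists, 36.1% (29.5 to 43.1) of the 205 with the nearest one over 1 to 5 kb away and 21.4% (15.9 to 27.7) of the 201 with it over 5 to 20 kb away. For the 93 more isolated peaks the share was 28.0% (19.1 to 38.2), so it did not fall steadily with distance. Peaks with a neighbour within 1 kb were also wider than those at 5 to 20 kb, with a median of 431 bp against 338 bp, and had smaller q-values, with medians of 2.13e-07 against 9.23e-06. The part of strength in this difference was not tested.

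Recurrence changed with strength over nearly its whole range. In the strongest quartile of III peaks (q up to 1.25e-10) 143 of 157 (91.1%, 85.5 to 95.04) were found in both replicates and 0 in neither. In quartile 2, 49 (31.2%) were in both. The number was 1 (0.637%) in quartile 3 and 0 in the weakest, where 127 (80.9%, 73.9 to 86.7) were in neither. All 63 peaks of the strongest decile were found in both. Peaks found in replicate 2 alone were commonest in the middle of the range, at 77.8% of decile 6. The change was not particular to III. In deciles of the whole series-level list, 98.5% of the peaks of II, IV, V and X were in both lists in decile 1, against 100% on III. In decile 6 of that list the shares were 1.47% and 2.74%. In its decile 10, 86.8% were in neither list on II, IV, V and X, against 87.1% on III. The series-level list may rest on the same libraries as the replicate lists, so this relation is a description.

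**Figure D3:**
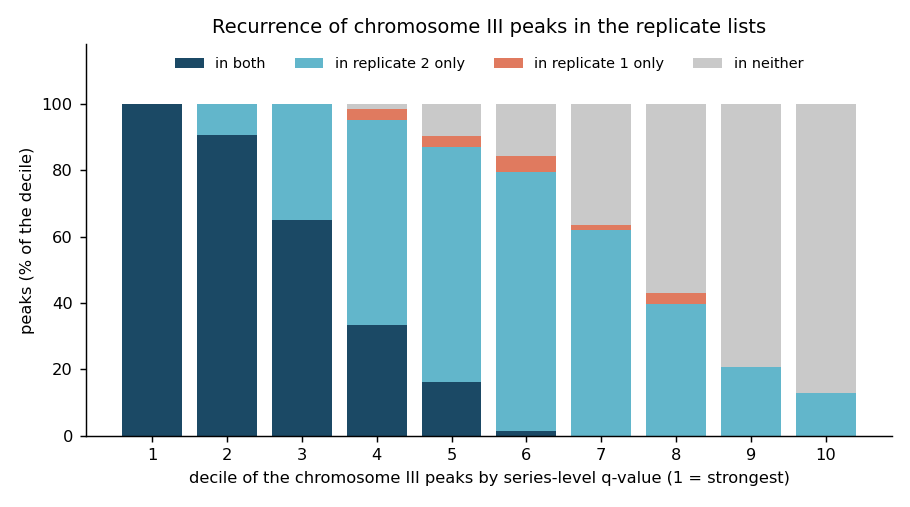
Share of the chromosome III peaks (y axis, percent) found in both, 1 or neither of the replicate lists, in deciles of the 628 peaks ordered by series-level q-value (x axis, strongest at the left). The share in both lists was 100% in decile 1 and 1.59% in decile 6, and the share in neither was 87.1% in decile 10.

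Width went with strength, and wider peaks were found in both replicates more often. Recurrence by width among peaks of like strength was not tested. Spearman's rho between width and strength was 0.69 over the 628 peaks, and between 0.50 (I) and 0.73 (X) on the other chromosomes. Peaks found in both replicates had a median width of 505 bp and none was under 278 bp. Those in replicate 2 alone had a median of 339 bp and those in neither one of 273.5 bp. Of the 205 peaks under 300 bp, 1 (0.488%) was found in both. The share was 26.0% from 300 to 399 bp, 50.9% from 400 to 599 bp, 66.7% from 600 to 999 bp and 94.4% from 1000 bp. Peaks found in both made up 30.7% of the peaks on III but 44.7% of the bases in peaks.

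**Figure D4:**
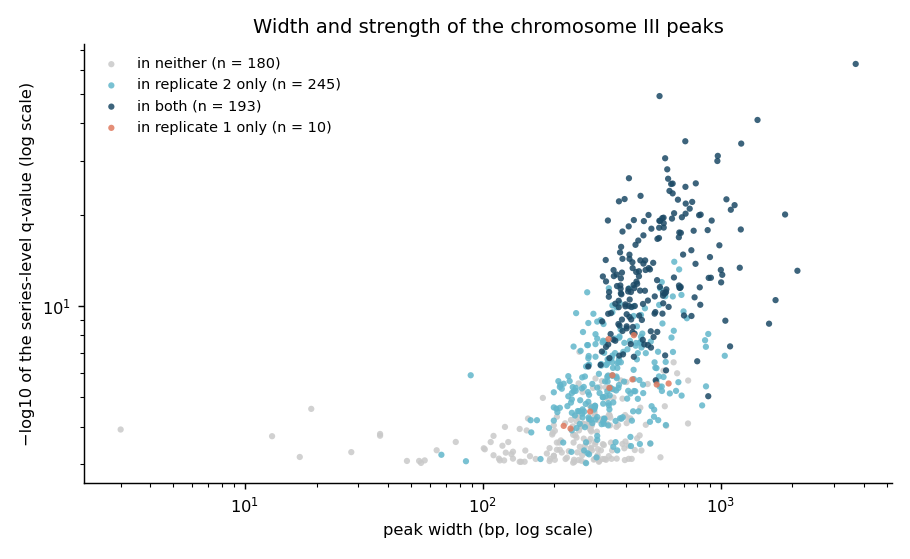
Width (x axis, bp, log scale) and −log10 of the series-level q-value (y axis, log scale) of the 628 chromosome III peaks, 1 point each, coloured by the replicate lists in which the peak was found. Points for peaks found in both lie to the upper right, at 278 bp and wider, and the 34 peaks narrower than 150 bp lie to the left, none with a q-value below 1.24e-06.

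Recurrence was also taken from the replicates' own lists. Replicate 1 had 206 peaks on III and replicate 2 had 455. Of the 206, 195 (94.7%, 90.65 to 97.3) overlapped a replicate 2 peak, where over all chromosomes 90.3% of replicate 1 peaks did. Of the 455, 195 (42.9%, 38.3 to 47.55) overlapped a replicate 1 peak, against 42.8% over all chromosomes. The 195 pairs on III were 1 to 1. Their centres lay a median of 36.5 bp apart, and 168 of them (86.2%) were within 100 bp. The replicate 2 peak was the wider in 125 pairs and the replicate 1 peak in 69, with median widths of 392 bp in replicate 1 and 417 bp in replicate 2. Across the pairs the ranks in the 2 lists had a Spearman's rho of 0.66 and the widths one of 0.68. The pairs share their libraries, so both are descriptions.

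In replicate 1 the share found again was 100% in the strongest quartile of its III peaks and 88.2% in the weakest. In replicate 2 it was 86.0% in the strongest quartile, then 53.5% and 22.8%, and 8.85% in the weakest. The strongest replicate 2 peaks with no counterpart in replicate 1 were III 8981975 to 8982587 (q = 4.4e-12), III 13105644 to 13106136 (q = 2.85e-11) and III 6133205 to 6133882 (q = 6.29e-11). The corresponding series-level peaks, numbers 102, 73 and 82 of III, were the 3 strongest not found in both lists. Of the 11 replicate 1 peaks without a counterpart, the strongest was III 5871731 to 5872091 (q = 7.41e-06), followed by III 10461006 to 10461354 (q = 4.62e-05) and III 1233370 to 1233699 (q = 8.68e-05). The peak at III 10461006 lies in the series-level peak III 10460484 to 10461375, which counted as found in both replicates. That series-level peak also overlaps a replicate 2 peak of 301 bp, which does not overlap the replicate 1 peak. A series-level peak can thus count as found in both although the replicates' peaks lie apart. The strongest series-level peak found in neither list was III 10513411 to 10513665, 255 bp wide and number 247 of III (q = 8.77e-08). Next were III 7940834 to 7941468 (q = 3.05e-07) and III 6655649 to 6656224 (q = 7.68e-07). These 2 were wider than most peaks found in neither list, at 635 and 576 bp. Since read depth is not in the files, a peak missing from a list may have been below its detection limit.

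The series-level list covered 204 of the 206 replicate 1 peaks on III (99.03%, against 99.1% over all chromosomes) and 440 of the 455 replicate 2 peaks (96.7%, against 97% over all). The 2 replicate 1 peaks that it lacks were also in replicate 2, and both lay in the left arm. One was III 931227 to 931827, with q = 2.79e-09 in replicate 1 and q = 6.54e-10 in replicate 2. The nearest series-level peak was 42800 bp away. The other was III 1299607 to 1300474, with q = 4.86e-07 in replicate 1 and q = 2.03e-07 in replicate 2, 14666 bp from the nearest series-level peak. Their edges differed between the replicates by up to 50 bp at the first site and 10 bp at the other. The other 13 replicate 2 peaks without a series-level counterpart were weak, with q-values of 0.000146 and above.

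The series-level order mostly followed the replicates but left some peaks far down. Over the 193 peaks of III found in both replicates, Spearman's rho of the series-level rank was 0.78 with replicate 1 and 0.88 with replicate 2. The replicates between themselves had 0.67. The sharpest exception was III 10224451 to 10225338 in the right arm, which ranked last of the 193 in the series-level list (q = 9.19e-06, number 2217 of 3792). Among the same peaks it was in place 23 in replicate 1 (q = 1.16e-09) and in place 18 in replicate 2 (q = 1.33e-14). Its edges were the same to within 2 bases in all 3 lists, at 888, 886 and 886 bp wide. III 7446782 to 7447878 in the centre was in place 179 in the series-level list (q = 4.43e-08), but in place 19 in replicate 1 (q = 3.13e-10) and place 63 in replicate 2 (q = 2.77e-10). On III these 2 peaks of 193 stood over 30 percentage points of the order below their places in both replicates, against 1 of 840 on the other chromosomes. By the same margin, 1 of 193 on III stood above its places in both replicates, against 7 of 840 on the other chromosomes. Chromosome I, with 66 of the 840 peaks, had 4 of those 7. The 2 peaks of III that stood below were picked out after their values were seen, and no cause was tested. The weakest other series-level peaks found in both were III 9443267 to 9443800 (q = 2.06e-06) and III 8356352 to 8356941 (q = 7.42e-07), which were weak in both replicates as well, with q-values of 0.000169 and above.

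**Figure D5:**
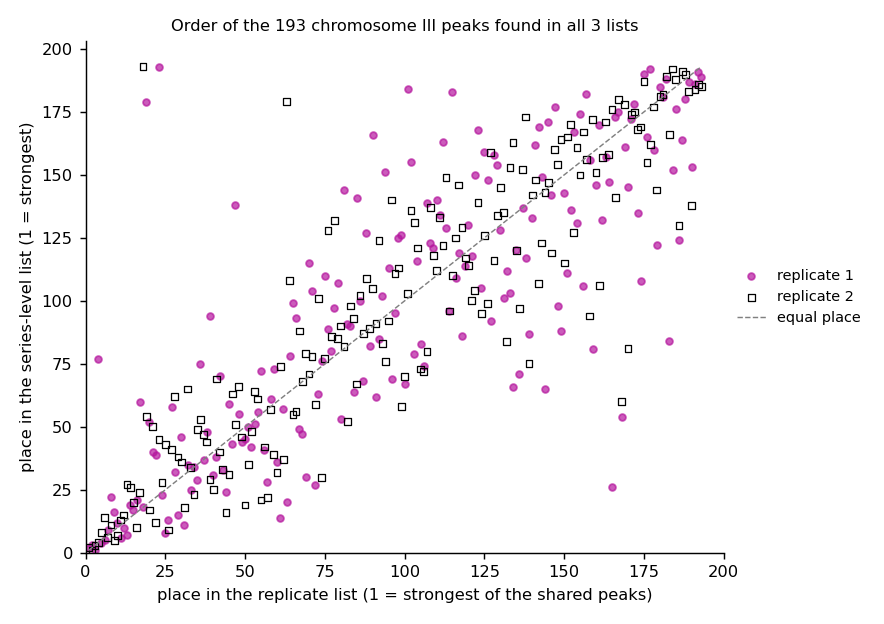
Place in the series-level list (y axis) against the place in each replicate list (x axis) for the 193 chromosome III peaks found in all 3 lists, with 1 as the strongest; circles are replicate 1, squares replicate 2, and the dashed line marks equal places. Points scatter about the line, more widely for replicate 1 (Spearman's rho of 0.78) than for replicate 2 (0.88). The peak in place 193 of the series-level list lies far to the left, at places 23 and 18.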

How the data were processed

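The authors deposited 3 peak lists, 1 for each ChIP sample and 1 for the series. The file headers place them on WormBase WS220, and their source column reads PeakSeq, a peak caller. Sources used here do not state its version or threshold, the aligner, how the inputs were used or whether replicates were pooled. Each deposited score was read as a q-value (adjusted p-value), since none exceeded 0.000997 and score times peak number did not decrease with the number. Peaks were ranked within a list by q-value, then number. The files hold no read counts, so depth is unknown.

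Peaks were taken by chromosome, and arms or centre were assigned by peak midpoint. Shares have exact Clopper-Pearson 95% intervals. With 2 ChIP samples and peaks that are not replicates, no significance test was run. Overlap and merging were checked on simulated lists (Python 3.11.15, scipy 1.17.1).

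Regions named are fixed numbers of the strongest, widest, most crowded and least recurrent ones, and discordant peaks noticed later. These rules and comparisons were chosen with earlier results of these data known. Motifs and genes were not analysed here, because no sequence or annotation of WS220 was used.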

Additional observations from a re-analysis of the deposited data

How the results depend on the processing

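Over 63 alternative values for 11 results, 51 planned and 12 chosen after seeing the data, no ratio crossed 1. Stricter overlap rules moved 1 of 8 shares beyond its interval: with reciprocal 50% overlap, replicate 1 recurrence was 89.8%. It was 75.7% with replicate lists of equal length, and replicate 2 recurrence was then 70.3%. The rank correlation was 0.68 and 0.65 under these 2 rules. In the stronger 50% of each list, 26.7% of III peaks were in both lists and replicate 2 recurrence was 37.2%. In the stronger 50% of the series-level list, the centre-to-arms ratio was 1.40 and the median width 446 bp. With quartiles drawn within that part and the full replicate lists, the quartile difference was 81.8 points. It was 91.1 for quartiles of all III peaks. With the outer 25% on each side as arms, the centre-to-arms ratio was 1.32 and the left-to-right ratio 0.77; arms of 4 Mb gave a left-to-right ratio of 0.82. Merging within 1 kb gave a centre ratio of 1.17. Merging within 5 kb gave 1.12, a left-to-right ratio of 0.82 and a density ratio of III of 1.38. The density ratio was 1.32 against II, IV and V and 1.49 per coding gene. Without peaks narrower than 150 bp, 25.1% were in neither list. The cause of these shifts was not tested.

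With 1 replicate list used at a time, the share of III peaks found in all lists used was 32.3% to 69.7%, the share in none 30.3% to 67.7% and the quartile difference 82.2 to 89.8 points. The high first value is without replicate 1, and the high second value without replicate 2, whose list is the longer. The replicates' own lists gave centre-to-arms ratios of 1.26 to 1.30 (merged within 1 kb, 1.29 in replicate 1 and 1.15 in replicate 2; within 5 kb, 1.24 and 1.07), left-to-right ratios of 0.81 to 0.89, density ratios of 1.55 to 1.58, median distances of 18.8 to 46.0 kb and median widths of 352 to 385 bp. No paired analysis was possible because no result comes from a test and input values were not analysed here.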
